A study of Mus musculus with 12 samples.

Results

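The genes described here are the transcription factor NRF2 (encoded by Nfe2l2), its inhibitor Keap1, 4 antioxidant genes that NRF2 is known to activate (Nqo1, Hmox1, Txnrd1 and Srxn1), and 3 enzymes of the pentose phosphate pathway (Pgd, Tkt and Taldo1). They are 9 of the 43686 rows of a gene count table and were picked by symbol. The symbol column named 8 of them, and Txnrd1, whose symbol is blank in that column, was found through the KEGG annotation of its row (MGP_C57BL6NJ_G0017981). All 9 had enough counts to be tested. They were compared between ventricular walls of 6 WT mice, which carry floxed Sdhaf4 alleles without Cre (Sdhaf4 fl/fl), and 6 KO mice, in which Ckmm-Cre removes the floxed alleles. The sample labels call the genotypes wild type and Sdhaf4-/-, the strain C57BL/6 and the age 2 months in both groups. The study's text names a C57BL/6J background and also gives younger ages. Sdhaf4 encodes an assembly factor of succinate dehydrogenase, complex II of the mitochondrial respiratory chain. The muscle creatine kinase promoter of the transgene deletes Sdhaf4 in cardiac and skeletal muscle from early life, the other cells of the ventricular wall keep their alleles, and no group carries the Cre without the floxed alleles.

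In resting cells KEAP1 holds NRF2 in the cytoplasm and passes it to a CUL3 ubiquitin ligase for degradation. Oxidants and electrophiles modify KEAP1, and NRF2 then enters the nucleus, pairs with a small MAF protein and binds antioxidant response elements, so that its activity is set largely at the protein level. Its targets detoxify quinones, repair oxidized thiols, break down heme and make NADPH. The pentose phosphate pathway has an oxidative branch that reduces NADP to NADPH, to which 6-phosphogluconate dehydrogenase (Pgd) belongs, and a non-oxidative branch, in which transketolase (Tkt) and transaldolase (Taldo1) exchange sugar phosphates with glycolysis.

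Because NRF2 acts through short DNA elements, the promoters of the genes are shown first. RefSeq sequences (GRCm38.p6, 250 bases before to 50 after each transcription start) were at hand for 8 of the 9 genes, in 11 windows, and Hmox1 had no entry. The core of the antioxidant response element, TGACNNNGC, was searched on both strands. It was present in 12.4% of all 32851 windows and in 4 of the 11 windows of these genes, in those of Nfe2l2, Txnrd1, Srxn1 and Pgd. The matches in the Srxn1 and Pgd windows (TGACCTAGC and TGACATTGC) lay 29 and 4 bases after the start. The fully specified sequence TGACTCAGC, of the same length and among those that fit the core, was in 0.454% of all windows and in none of the 11. The stretches around the 2 matches that precede a start are given 5′ to 3′ along the gene, with the match in capitals, for Nfe2l2 (chr2:75704865-75704913, minus strand, 240 bases before the start) and Txnrd1 (chr10:82859084-82859152, plus strand, 92 bases before). In Txnrd1 the element reads in the opposite direction, as TGACAAAGC.
Nfe2l2: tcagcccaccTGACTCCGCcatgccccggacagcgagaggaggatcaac
Txnrd1: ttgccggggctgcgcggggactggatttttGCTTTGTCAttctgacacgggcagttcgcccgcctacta
Sequence beyond the windows was not searched for any gene, so an element farther from a start would have been missed. Nqo1, which had the largest log2 fold change of the 9 genes in the hearts, is shown with the 250 bases before its RefSeq start (chr8:107403206-107403455, minus strand), in which the core was not found.
Nqo1: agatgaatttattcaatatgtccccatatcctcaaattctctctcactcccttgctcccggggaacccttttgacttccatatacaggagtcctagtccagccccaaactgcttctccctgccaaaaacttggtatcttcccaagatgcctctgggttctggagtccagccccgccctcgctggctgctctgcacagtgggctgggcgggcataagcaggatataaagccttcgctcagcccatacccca
The matched sequences differ in the letters between TGAC and GC, and a match describes the sequence only, since binding was not measured.

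The libraries held 23747014 to 27159228 counts in WT and 26542930 to 31393393 in KO, and every pair of replicates differed by more than sampling noise. Levels are given in CPM, the counts scaled to library size with edgeR's TMM factors, and changes are log2 fold changes of KO against WT from edgeR's quasi-likelihood test, with p-values adjusted by Benjamini-Hochberg over the 17155 rows tested. The targeted gene checked the labels. Sdhaf4 had 25.2 ± 5.80 CPM in WT (SD, n = 6) and 2.40 ± 0.170 in KO, a log2 fold change of -3.39 (SE 0.16, edgeR adjusted p = 1.95e-10), and the groups did not overlap. Of all rows tested, 51.1% passed an adjusted p of 0.05, 25.6% as higher and 25.5% as lower in KO, and in 30.1% the 6 KO hearts did not overlap the 6 WT hearts.

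Of the 9 genes, 5 rose in KO (Nqo1, Txnrd1, Srxn1, Pgd and Tkt), 1 fell (Taldo1), and 3 did not pass the test (Nfe2l2, Keap1 and Hmox1). The share that passed, 6 of 9, stands beside 51.1% of all rows, and the 5 that rose beside 25.6%. The median log2 fold change of the 9 genes was 0.22, against 0.00 over all rows tested. The groups did not overlap for Nqo1 and Pgd, 2 genes of 9 with KO above WT, an order found in 14.9% of all rows, and the opposite order, found in 15.2% of all rows, occurred in none of the 9. With the stricter thresholds of the study's methods (adjusted p of 0.005 and an absolute log2 fold change over 1), Nqo1 alone among them passed, while 10.2% of all rows did, 5.36% as higher.

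**Figure D1:**
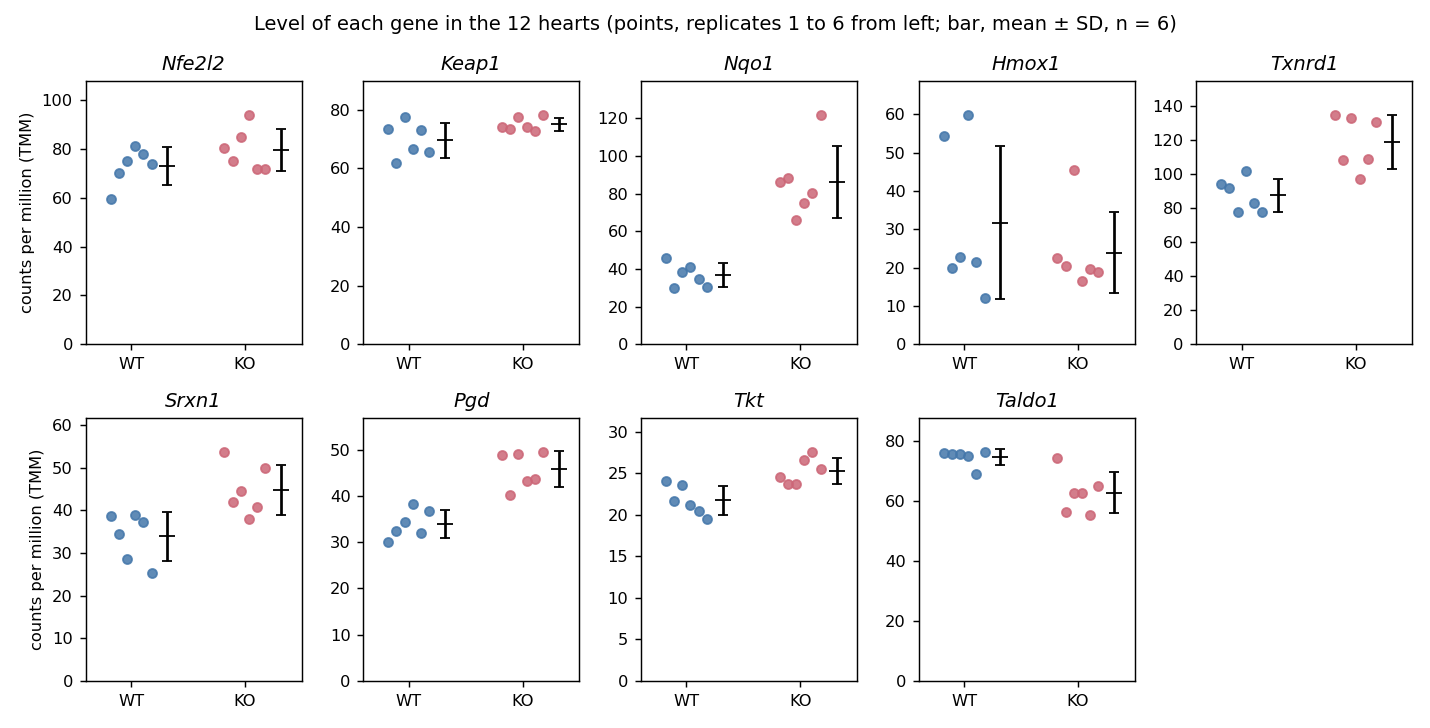
Level (CPM) of each of the 9 genes in the 12 hearts, on linear axes from 0; points are hearts, replicates 1 to 6 from left to right in each genotype, and bars give the mean ± SD (n = 6). All 6 KO hearts lie above all 6 WT hearts for Nqo1 and Pgd, and Hmox1 has 2 high WT hearts and 1 high KO heart.

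The transcripts of the sensor pair were examined first. Nfe2l2 (MGP_C57BL6NJ_G0026276, chr2:78301317-78338538, minus strand, C57BL/6NJ assembly as for all gene positions below) ranged from 59.5 to 81.3 CPM in WT (median 74.6) and from 71.7 to 93.8 in KO (median 77.7). WT1 and WT2 lay below all KO hearts and KO3 and KO4 above all WT hearts, and the remaining hearts of both groups lay among each other. Its log2 fold change was 0.12 with a 95% interval from -0.04 to 0.29 (edgeR adjusted p = 0.197). Keap1 (MGP_C57BL6NJ_G0034934, chr9:19164527-19174129, minus strand) ranged from 61.9 to 77.7 CPM in WT (median 69.8) and from 72.9 to 78.1 in KO (median 74.1). All KO hearts lay above the WT median, and the log2 fold change was 0.11 with an interval from -0.01 to 0.22 (edgeR adjusted p = 0.113). Keap1 overlaps an unnamed row on the opposite strand over 3317 bases. The log2 ratio of the counts of Nfe2l2 and Keap1 within a heart was 0.07 ± 0.21 in WT and 0.08 ± 0.16 in KO (SD, n = 6), a difference of 0.01 (exact permutation p = 0.9004, unchanged by adjustment over the 8 gene pairs compared, of which 6 are given here).

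Nfe2l1, which encodes the related factor NRF1 that is held at the endoplasmic reticulum and controls proteasome genes, was compared with Nfe2l2. It fell from 694 ± 35.7 to 552 ± 45.1 CPM (log2 fold change -0.33, SE 0.06, edgeR adjusted p = 0.000178, n = 6 each), and every KO heart was below every WT heart. The log2 ratio of Nfe2l2 to Nfe2l1 rose by 0.46, from -3.25 ± 0.17 to -2.80 ± 0.18, with no overlap between the groups. Its exact permutation p of 0.00216 is the smallest that the splits of 12 hearts into 6 and 6 can give, and the adjusted value over 8 pairs was 0.00433. Of the pair, Nfe2l1 passed the test by itself and Nfe2l2 did not.

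Among the 4 antioxidant genes, Nqo1, an enzyme that reduces quinones to hydroquinones, changed most. Nqo1 (MGP_C57BL6NJ_G0034593, chr8:113828429-113843415, minus strand) ranged from 29.6 to 45.8 CPM in WT (median 36.7) and from 65.9 to 122 in KO (median 83.3). The highest WT heart, WT1, was still well below the lowest KO heart, KO3, and KO6 stood above the other KO hearts. The mean rose 2.35-fold, from 36.7 ± 6.28 to 86.2 ± 19.2 CPM (log2 fold change 1.23, SE 0.15, edgeR adjusted p = 1.49e-05). Nqo2, a related quinone reductase that uses another cofactor, moved the other way. It ranged from 40.3 to 45.8 CPM in WT and from 21.2 to 30.2 in KO, again with no overlap (log2 fold change -0.77, SE 0.07, edgeR adjusted p = 2.40e-07). The whole span of Nqo2 (27869 bases) lies within Serpinb6a on the opposite strand, which had a mean of 3924 counts against 920 for Nqo2 and rose (log2 fold change 0.44). Whether the counting used strand is unknown, so reads of both genes may not have been told apart, and the value of Nqo2 and its ratio with Nqo1 are uncertain to that extent. Hmox2, described below, shares 1282 bases with the opposite-strand gene Cdip1, and the same limit holds for it and for any other gene with an overlapping neighbour. Within hearts the log2 count ratio of Nqo1 to Nqo2 went from -0.25 ± 0.26 in WT to 1.75 ± 0.39 in KO, a difference of 1.99 (exact permutation p = 0.00216, 0.00433 after adjustment). The highest WT heart had 0.12 and the lowest KO heart, KO3, had 1.13.

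Txnrd1, the cytosolic thioredoxin reductase, and Srxn1, the sulfiredoxin that restores overoxidized peroxiredoxins, both rose. Txnrd1 (chr10:86542749-86582605, plus strand) ranged from 77.5 to 102 CPM in WT (median 87.1) and from 96.9 to 134 in KO (median 119). WT4 and KO4 were the hearts that overlapped, and the log2 fold change was 0.44 (SE 0.09, edgeR adjusted p = 0.000755). Srxn1 (MGP_C57BL6NJ_G0027075, chr2:161194650-161202250, plus strand) ranged from 25.4 to 38.9 CPM in WT (median 35.8) and from 38.0 to 53.7 in KO (median 43.3). The overlap was small and again involved KO4, with a log2 fold change of 0.40 (SE 0.11, edgeR adjusted p = 0.00687). Txnrd2, the mitochondrial thioredoxin reductase, did not pass the test (34.2 ± 2.20 CPM in WT, 35.1 ± 2.40 in KO, log2 fold change 0.04 with an interval from -0.09 to 0.16, edgeR adjusted p = 0.620). From WT to KO the log2 count ratio of the cytosolic to the mitochondrial enzyme rose by 0.40, from 1.35 ± 0.13 to 1.75 ± 0.16. The highest WT heart had 1.51 and the lowest KO heart 1.54, so the groups were separate by a narrow margin (exact permutation p = 0.00216, 0.00433 after adjustment).

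Hmox1, the inducible heme oxygenase that opens the heme ring, did not pass the test. Hmox1 (MGP_C57BL6NJ_G0034291, chr8:78476857-78486030, plus strand) had 54.4 CPM in WT1 and 59.7 in WT4, and 12.1 to 22.6 in the other 4 WT hearts. In KO it had 45.3 CPM in KO3 and 16.5 to 22.6 in the other 5 hearts. The medians were 22.1 in WT and 20.1 in KO, and both groups thus held a low majority and 1 or 2 high hearts. The log2 fold change of -0.40 had an SE of 0.42 and an interval from -1.33 to 0.53 (edgeR adjusted p = 0.458), and without WT4 or without KO3 it was -0.13 or -0.69. The interval includes both a fall and a rise, so the direction was not resolved with 6 hearts per group. The summed level of 10 macrophage markers, of which Itgam was at 0 and Lyz2 had no row, was 257 CPM in WT1, 306 in WT4, the highest of the WT hearts, and 270 in KO3, and it ran from 226 to 318 over the other hearts. An unnamed row with a mean of 81.2 counts overlaps Itgam on the same strand over 64444 bases. The 0 of Itgam therefore need not mean that the gene was silent. The part of macrophages in the Hmox1 level was not tested. Hmox2, the constitutive heme oxygenase, rose from 73.2 ± 3.23 to 83.5 ± 6.34 CPM (log2 fold change 0.19, SE 0.05, edgeR adjusted p = 0.00619). Hmox1 relative to Hmox2 differed by -0.45 between the groups on the log2 scale, with an exact permutation p of 0.277 (0.369 after adjustment).

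Pgd, the dehydrogenase that turns 6-phosphogluconate into ribulose 5-phosphate in the oxidative branch, rose in all KO hearts above the WT range. Pgd (MGP_C57BL6NJ_G0029566, chr4:158491899-158508679, minus strand) ranged from 29.9 to 38.2 CPM in WT (median 33.3) and from 40.3 to 49.5 in KO (median 46.3). WT4 was the highest WT heart and KO2 the lowest KO heart. Its mean rose 1.35-fold (log2 fold change 0.43, SE 0.07, edgeR adjusted p = 6.76e-05). H6pd, which catalyses the steps before that of Pgd, inside the endoplasmic reticulum, rose as well. It went from 47.9 ± 2.55 to 57.9 ± 4.40 CPM with no overlap (log2 fold change 0.28, SE 0.06, edgeR adjusted p = 0.000595).

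The 2 enzymes of the non-oxidative branch moved in opposite directions. Tkt (MGP_C57BL6NJ_G0021488, chr14:24618819-24644576, plus strand) ranged from 19.5 to 24.1 CPM in WT (median 21.4) and from 23.7 to 27.6 in KO (median 25.0). The overlap came from WT1, and the log2 fold change was 0.22 (SE 0.07, edgeR adjusted p = 0.0112). Taldo1 (MGP_C57BL6NJ_G0033720, chr7:151930208-151942087, plus strand) ranged from 69.2 to 76.4 CPM in WT (median 75.8) and from 55.5 to 74.4 in KO (median 62.8). KO1 lay within the WT range and the other 5 KO hearts below it, and Taldo1 fell by 0.25 on the log2 scale (SE 0.06, edgeR adjusted p = 0.00314). Tkt relative to Taldo1 rose by 0.47 on the log2 scale, from -1.78 ± 0.11 to -1.31 ± 0.20 (exact permutation p = 0.00216, adjusted 0.00433). The highest WT heart had -1.66 and the lowest KO heart, KO1, had -1.60, and each gene alone overlapped between the groups.

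**Figure D2:**
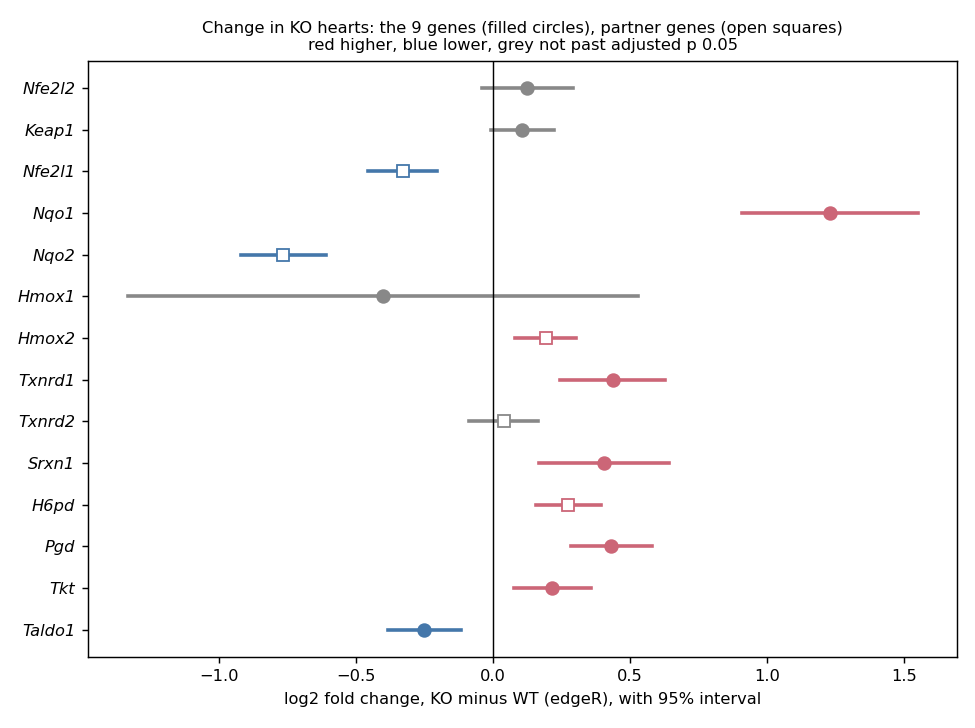
Log2 fold change of KO against WT with its 95% interval (edgeR) for the 9 genes (filled circles) and 5 partner genes (open squares), red where higher, blue where lower and grey where not past an adjusted p of 0.05. Nqo1 at 1.23 and Nqo2 at -0.77 lie farthest apart, and the interval of Hmox1, from -1.33 to 0.53, is the widest.

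**Figure D3:**
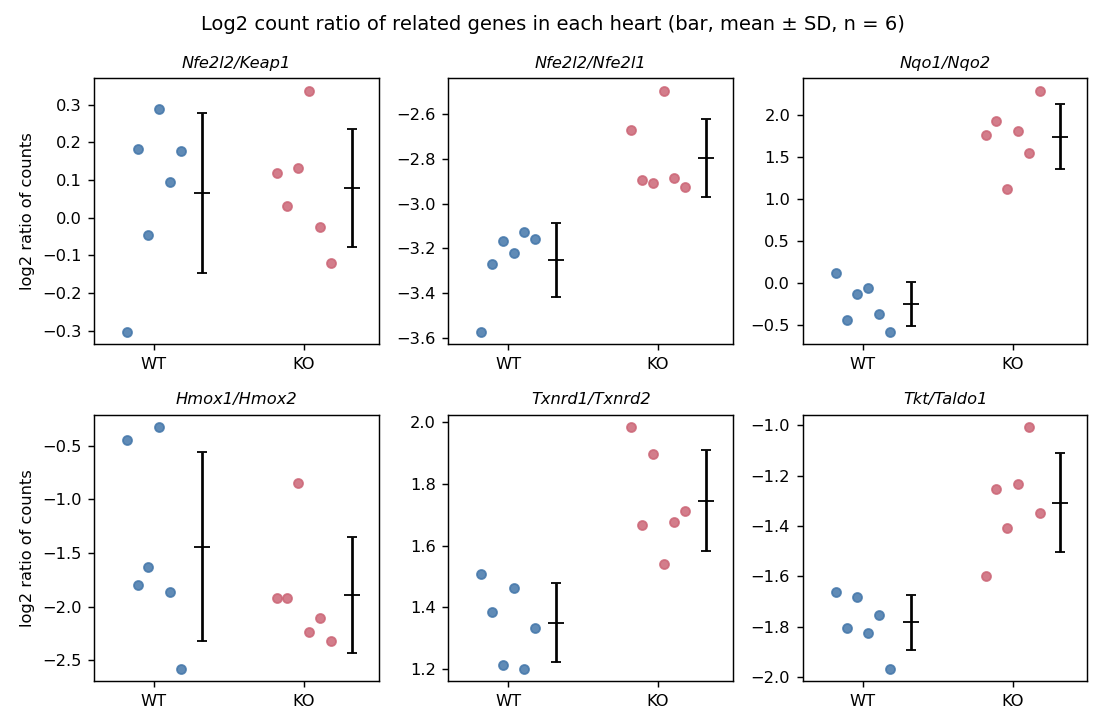
Log2 ratio of the counts of 6 gene pairs in each heart, on axes that differ by panel and do not start at 0; points are hearts and bars give the mean ± SD (n = 6). The genotypes do not overlap for Nfe2l2/Nfe2l1, Nqo1/Nqo2, Txnrd1/Txnrd2 and Tkt/Taldo1, and they overlap for Nfe2l2/Keap1 and Hmox1/Hmox2.

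Levels were compared between genes with the authors' FPKM values, which are scaled by transcript length. In WT the mean FPKM was highest for Taldo1 (79.1 ± 4.03) and lowest for Tkt (13.9 ± 1.05). Between them stood Nfe2l2 (37.2), Hmox1 (32.7), Keap1 (28.0), Srxn1 (27.9), Nqo1 (23.6), Pgd (21.1) and Txnrd1 (19.9), and from Nfe2l2 to Txnrd1 each gene overlapped its neighbour over the WT hearts. The steps from Taldo1 to Nfe2l2 and from Txnrd1 to Tkt did not overlap. In KO Taldo1 (66.5 ± 7.56) and Tkt (16.1 ± 1.29) kept the ends of the order. Nqo1 went from the 6th place to the 2nd, at 55.5 ± 11.8 FPKM, and Hmox1 went from the 3rd to the 8th, at 24.7 ± 10.3 FPKM. The place of Hmox1 in WT rested on WT1 and WT4, and its median was 22.5 FPKM in WT and 21.1 in KO. The enzymes of the non-oxidative branch, Taldo1 and Tkt, thus stood at the top and the bottom of the order in both genotypes.

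The genes also differed in how much they varied between hearts of a genotype. The within-genotype SD of log2 CPM was 0.73 for Hmox1, larger than in 99.6% of the 11167 rows at 5 CPM or more on average, and the highest WT heart had 4.93 times the lowest. It was 0.27 for Nqo1, 0.22 for Srxn1 and 0.18 for Txnrd1, against a median of 0.13 over all those rows. The other 5 genes lay between 0.09 (Keap1) and 0.16 (Nfe2l2). Pgd (0.13), Taldo1 (0.12), Tkt (0.10) and Keap1 (0.09) varied less than the median row. Tkt and Taldo1 passed the test with log2 fold changes of 0.22 and -0.25, and Hmox1 did not with -0.40.

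**Figure D4:**
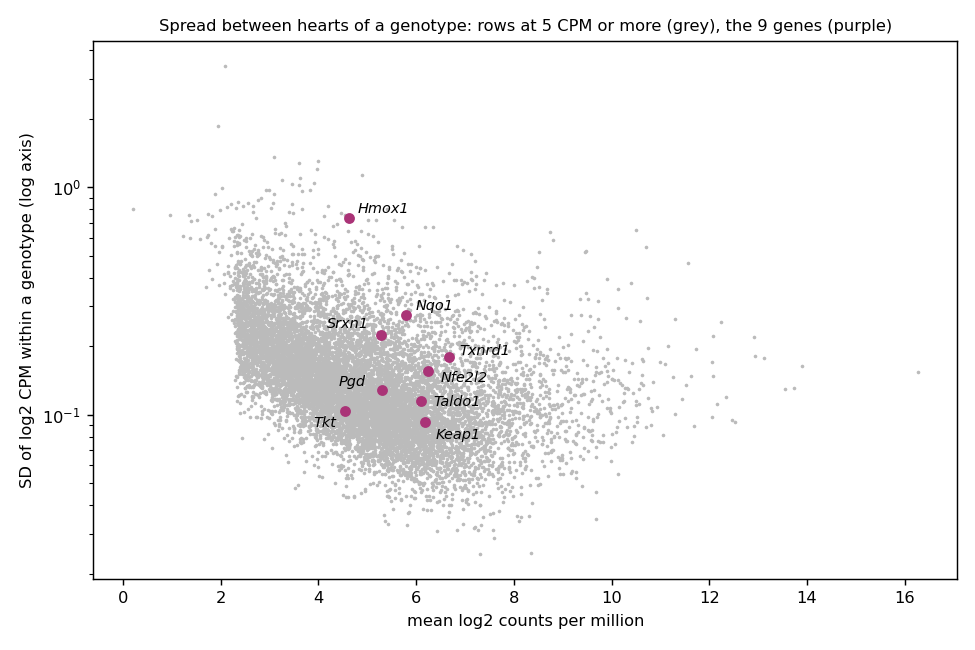
SD of log2 CPM between hearts of a genotype (log axis) against the mean log2 level, for the 9 genes (purple) and all rows at 5 CPM or more (grey). Hmox1 at 0.73 stands above the bulk of the rows, and Keap1 at 0.09 is the lowest of the 9.

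For each gene the row whose deviations from the genotype means were most like its own over the 12 hearts was found among 10140 genes. The closest were Ermard for Nfe2l2 (Pearson r = 0.90), Pdk3 for Keap1 (0.88), Gm5617 for Nqo1 (0.92), Pex19 for Hmox1 (0.96), Large for Txnrd1 (0.95), Dph7 for Srxn1 (0.91), Tmem53 for Pgd (0.87), Fbxl18 for Taldo1 (0.87) and Inpp1 for Tkt (0.86). Spearman's rho of these pairs ran from 0.72 for Hmox1 with Pex19 to 0.90 for Nfe2l2 with Ermard and for Pgd with Tmem53. Each is the highest of 10140 values over hearts that share libraries and is given as a description. None of the 9 genes was the closest match of another, which among 10140 genes does not show whether they vary together.

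Other genes of the same pathways were counted from fixed lists, and the counts stand beside 25.6% higher and 25.5% lower among all rows tested. Of 14 genes that regulate, pair with or are related to NRF2 or bind KEAP1, 6 rose and 5 fell, with a median log2 fold change of 0.01. The small MAF partners Maff (from 18.7 ± 2.62 to 36.3 ± 5.38 CPM, log2 fold change 0.96, SE 0.10, edgeR adjusted p = 1.05e-06) and Mafk (from 92.2 ± 5.89 to 151.0 ± 21.1, 0.71, SE 0.08, 1.11e-06) rose without overlap, whereas the third small MAF gene, Mafg, fell without overlap (from 58.7 ± 1.40 to 46.9 ± 4.56, -0.32, SE 0.06, 0.000215). Sqstm1, whose product p62 binds KEAP1 for autophagy, fell from 862 ± 82.3 to 540.4 ± 76.8 CPM (log2 fold change -0.67, SE 0.09, edgeR adjusted p = 8.53e-06). Cul3, the scaffold of the KEAP1 ligase, fell from 168 ± 9.29 to 137 ± 7.71 CPM (-0.30, SE 0.05, 0.000118). Of 28 further genes listed as NRF2 targets, a list that does not hold all of its targets, 27 were tested. Among them 8 rose, 11 fell and 8 did not pass, with a median of -0.06. The 11 that fell include the detoxifying enzymes Mgst1 (log2 fold change -1.24, SE 0.18, edgeR adjusted p = 8.29e-05), Cbr1 (-0.76, SE 0.08, 8.14e-07) and Gstp1 (-0.76, SE 0.08, 3.96e-07), whose row overlaps that of its near-identical copy Gstp2. Gclc, the catalytic subunit of glutathione synthesis, rose from 17.7 ± 2.21 to 30.3 ± 5.35 CPM (log2 fold change 0.77, SE 0.12, edgeR adjusted p = 4.47e-05). The 8 that rose became 4 without WT3 and 5 without WT4, WT6 or KO1.

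Of 13 further genes of pentose phosphate metabolism 10 were tested, of which 3 rose, 3 fell and 4 did not pass (median log2 fold change 0.01). Dera, which splits deoxyribose phosphate, rose by 1.10 (SE 0.12, edgeR adjusted p = 1.42e-06), from 4.08 ± 0.685 to 8.76 ± 0.930 CPM. The row that the table names Pgm2 rose by 0.54 (SE 0.07, edgeR adjusted p = 3.52e-06). It lies on chromosome 4, where RefSeq places the phosphoglucomutase Pgm1, and RefSeq's Pgm2, the phosphopentomutase, lies on chromosome 5. The chromosome 5 row, which the table names Pgm1, rose by 0.57 (SE 0.10, edgeR adjusted p = 0.000116), and with it in the list the counts were again 3, 3 and 4. The synthetases that make phosphoribosyl pyrophosphate from ribose phosphate both fell, Prps2 with a log2 fold change of -0.84 (SE 0.10, edgeR adjusted p = 2.97e-06) and Prps1 with -0.44 (SE 0.06, 2.57e-05). Pgls, the lactonase that supplies the substrate of Pgd, had a log2 fold change of 0.11, and Rpia and Rpe, which convert the product of Pgd for transketolase, had -0.13 and 0.17, and none of these passed the test.

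Of 14 genes of the thioredoxin and peroxiredoxin system 1 rose and 4 fell, with a median of -0.05. The 4 that fell were Prdx3 (log2 fold change -0.37, SE 0.05, edgeR adjusted p = 4.61e-06) and Txn2 (-0.29, SE 0.04, 2.57e-05), which act in mitochondria, Prdx2 (-0.32, SE 0.05, 3.31e-05), which acts in the cytosol, and Prdx5 (-0.31, SE 0.05, 5.27e-05), found in both. The 1 that rose, Sesn2 (0.37, edgeR adjusted p = 0.0309), lost its call without WT5, WT6, KO3 or KO5. Of 13 genes of other enzymes that make NADPH, or of the folate and malate steps related to them, 5 rose and 7 fell (median -0.31). The 4 with the smallest p-values were Me2 (1.25, SE 0.07, edgeR adjusted p = 7.13e-10), Mthfd1l (3.01, SE 0.24, 3.30e-08) and Mthfd2 (2.71, SE 0.26, 1.25e-06), which rose, and Aldh1l2 (-2.35, SE 0.16, 6.36e-09), which fell. The cytosolic relative Aldh1l1 fell by 2.01 on the log2 scale, from 4.95 ± 1.29 to 1.24 ± 0.783 CPM (SE 0.33, edgeR adjusted p = 0.000103). Of these, ME2 and MTHFD2 work mainly with NAD, and MTHFD1L makes formate without a redox step. Of 8 genes of heme breakdown and iron handling 7 were tested, of which 5 fell and Hmox2 rose (median -0.38). Slc40a1, the iron exporter ferroportin, fell from 77.6 ± 6.07 to 19.6 ± 4.02 CPM (log2 fold change -1.98, SE 0.11, edgeR adjusted p = 1.74e-09). The biliverdin reductase Blvrb (-0.58, SE 0.10, edgeR adjusted p = 9.31e-05) and the ferritin genes Fth1 (-0.45, SE 0.08, 0.000176) and Ftl1 (-0.38, SE 0.07, 0.000332) fell too. Some genes stand in more than 1 of these lists, so the counts do not add up.

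**Figure D5:**
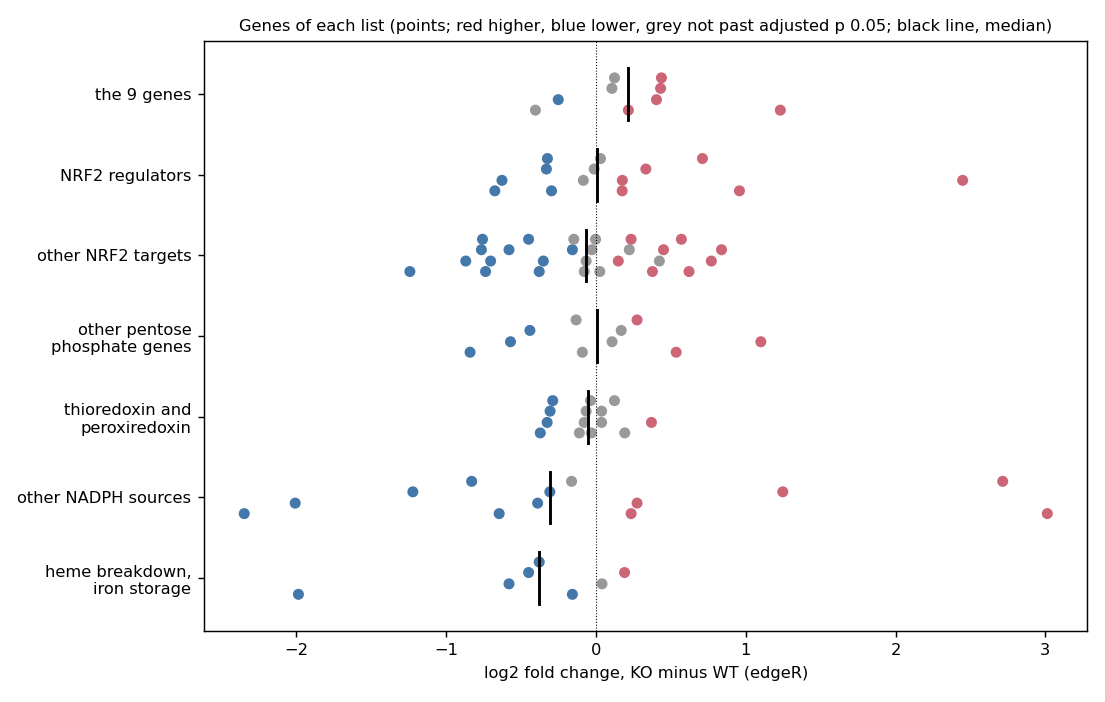
Log2 fold change of KO against WT (edgeR) of every tested gene of the 7 lists, red where higher, blue where lower and grey where not past an adjusted p of 0.05, with the list's median as a black line. The medians run from -0.38 (heme breakdown and iron) to 0.22 (the 9 genes).

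The ventricular wall holds several cell types, and markers of some of them moved with the genotype. Their counts stand beside 25.6% higher and 25.5% lower among all rows tested. In bulk RNA, fewer cells of a type and less RNA per cell cannot be told apart. Of 9 fibroblast markers 8 were higher in KO, and their summed level was 1468 to 1723 CPM in WT and 2622 to 4921 in KO. Endothelial markers gave 5 rises and 1 fall among 8 (sum 1487 to 1664 in WT, 1705 to 2032 in KO). Of 10 cardiomyocyte markers 6 were lower (sum 53810 to 58570 in WT, 43480 to 59500 in KO), and all 10 were detected in every heart. Of the genes listed for skeletal muscle 4 were tested, with Myod1 at 0. Acta1 rose (from 176 to 1215.5 CPM), Ckm (from 2118 to 1095) and Tnni2 (from 2.07 to 0.454) fell, and 1 gene did not pass the test. The muscle creatine kinase promoter also works in cardiac muscle, so the level of Ckm is not particular to skeletal muscle. The cell type behind the rise of Acta1 was not tested. Smooth muscle and pericyte markers gave 2 rises and 1 fall among 6. Macrophage markers gave 2 rises and 2 falls among 8 tested, and erythroid, lymphocyte and neutrophil markers gave no call at an adjusted p of 0.05. KO6, the heart with the highest Nqo1 level, had the lowest fibroblast sum of the KO hearts, and KO3, the heart with the lowest Nqo1 level, had the next lowest at 2961 CPM and the highest cardiomyocyte sum. The part of cell composition in the changes of the 9 genes was not tested.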

How the data were processed

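Ventricular wall mRNA of 6 WT and 6 KO hearts was sequenced, and groups and replicate numbers came from the sample labels. The authors purified mRNA on poly-T beads, mapped reads with HISAT2 (version 2.0.5 and build mm10 per the submitters' processing notes, whereas gene identifiers and positions in the table are of the C57BL/6NJ assembly) and deposited HTSeq gene counts, unnormalized, with FPKM values scaled by gene length and library size. The strand setting is not given in the sources used here. The deposited table also holds group means of size-scaled counts, a signal that the authors computed, and the log2 fold changes, p-values and q-values of the authors' own comparison, none of which were used.

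KO was compared with WT by the robust quasi-likelihood test of edgeR 4.0.16 in R 4.3.3, on counts scaled by TMM, for the 17155 rows that passed filterByExpr, with Benjamini-Hochberg adjustment over them. Log2 ratios of gene pairs (prior count 0.5) were compared by two-sided exact permutation over all splits of the hearts into 6 and 6. Totals were 23747014 to 31393393 counts per library. Replicates of a genotype are separate samples in the labels and are taken to be separate mice.

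The genes, the lists and the gene pairs were chosen with earlier results of these data known. 1 further gene of the set, with 2 gene pairs that hold it, is not reported here. The text names the 9 genes, Sdhaf4, the genes of the pairs, the 4 genes of smallest p past an adjusted p of 0.05 in each list, and the closest match of each gene. Pgls, Rpia, Rpe, Sesn2, Mafg, Aldh1l1, Serpinb6a, Cdip1, Pgm1, Acta1, Ckm, Tnni2 and the genes under other observations were named after their values were seen. Alternatives were other normalizations, filters and tests (DESeq2 1.42.0, limma 3.58.1), a replicate block, FPKM on the log2 scale (pseudocounts of 0.1 and 1) and each library left out. The analysis was tested on simulated counts. The 2590 unannotated loci stayed in the fit. Promoter windows came from RefSeq on GRCm38.p6 and were not joined to the table's coordinates.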

Additional observations from a re-analysis of the deposited data

Results flagged for a closer look

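In 5 of 30 groups of 6 values (Sdhaf4, the 9 genes and 5 partner genes in each genotype) 1 heart stood far from the others by Dixon's criterion, where chance gives about 1.5. Hmox1 had 45.3 CPM in KO3 and 16.5 to 22.6 in the other KO hearts. KO3 was also apart in Nfe2l1, at 638 CPM against 512 to 559 in the other KO hearts. Taldo1 had 69.2 CPM in WT5 and 75.1 to 76.4 in the other WT hearts. Txnrd2 had 39.8 CPM in KO6 and 33.3 to 35.7 in the other KO hearts. Sdhaf4 had 2.73 CPM in KO1 and 2.25 to 2.42 in the other KO hearts, all far below the WT range.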

How the results depend on the processing

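The direction and the call of Sdhaf4 and of each of the 9 genes held under 3 other normalizations, 2 other filters, DESeq2, limma-voom, edgeR without robust dispersions, the fit without unannotated loci, the replicate block and each of 12 libraries left out, and for the 9 genes also in limma on log2 FPKM. The counts of 5 higher and 1 lower held likewise. With 1 library left out, the log2 fold change of Nqo1 ran from 1.10 to 1.29, of Pgd from 0.39 to 0.47, of Tkt from 0.19 to 0.24 and of Hmox1, which was never called, from -0.69 to -0.13. Among the further NRF2 targets the count of higher genes, 8, ran from 4 to 7, and in the thioredoxin list, 1, from 0 to 2. The difference in the Nfe2l2/Keap1 ratio ran from -0.0601 to 0.0586, turning to -0.0601 without WT1, -0.01 without WT3 and -0.04 without KO4, within its spread.

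Counting the chromosome 5 phosphopentomutase row in the pentose phosphate list, chosen after seeing the data, changed neither count.

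Deviations of same-numbered hearts had correlations from -0.26 to 0.13. The study describes its controls as littermates, but the labels name no litter or batch, so pairing by these was not tested. With the replicate block, 5 further NRF2 targets and 0 thioredoxin genes were higher. In the paired form of the ratio test, a sign-flip test over 64 flips, the adjusted p could not fall below 0.0625 when 4 pairs reach the smallest value. It was 0.0625 for Nfe2l2/Nfe2l1 (difference 0.46), Nqo1/Nqo2 (1.99), Txnrd1/Txnrd2 (0.40) and Tkt/Taldo1 (0.47) in the paired test. Low rows limit what depth can show, and Tkt, at 21.8 CPM in WT, is the least counted of the 9 genes.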

Other observations

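The most abundant genes of the list of NADPH sources fell, which was noticed after the values were seen. Idh2, the mitochondrial NADP-dependent isocitrate dehydrogenase, went from 2062.1 ± 87.3 to 1161 ± 281 CPM (SD, n = 6, log2 fold change -0.83, SE 0.13, edgeR adjusted p = 9.16e-05). Nnt, the mitochondrial transhydrogenase that makes NADPH from NADH, went from 1139 ± 171 to 489 ± 150 CPM (-1.22, SE 0.18, edgeR adjusted p = 7.86e-05). In both genes the KO hearts lay below all WT hearts. Whether the Nnt transcript gives a working protein in this strain, or the Nnt allele differed between the groups, was not tested. Of the mitochondrial malic enzymes, Me3 fell (-0.39, SE 0.06, edgeR adjusted p = 3.62e-05) and Me2 rose (1.25, SE 0.07, edgeR adjusted p = 7.13e-10). Their cytosolic counterpart Me1, itself an NRF2 target, rose from 121 ± 9.80 to 143 ± 13.8 CPM (0.24, SE 0.07, edgeR adjusted p = 0.00850). The cytosolic isocitrate dehydrogenase Idh1 fell (-0.64, SE 0.13, edgeR adjusted p = 0.000920), as did the cytosolic Aldh1l1. With these and the rise of Me2, the direction did not follow the compartment.

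The subunits of the enzyme that starts glutathione synthesis moved apart. Gclc, the catalytic subunit, rose (log2 fold change 0.77), and Gclm, the modifier subunit, fell from 42.0 ± 8.07 to 25.8 ± 5.63 CPM (-0.70, SE 0.15, edgeR adjusted p = 0.00169), with overlap between the groups. Nfe2l3, a further relative of Nfe2l2, was higher in KO (0.145 ± 0.0992 CPM in WT, 0.810 ± 0.321 in KO, edgeR adjusted p = 0.000149), at a level that rests on few reads.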
